A study of Mus musculus with 16 samples.

Results

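The mitochondrially encoded genes were taken as every row of the deposited count table whose symbol starts with mt-. They are 37 of 39179 genes: 13 protein-coding, 2 rRNA and 22 tRNA genes, all of them matched by identifier to the mitochondrial chromosome of GENCODE M21 (GRCm38). The libraries were poly(A) RNA of B cells from the spleen of NOD.LT mice, a line of the non-obese diabetic mouse, aged 15 weeks. Animals had free access for 5 weeks to the NP diet (also named Gordons in the labels) or to the HAMS, HAMSA or HAMSB diet, and each diet has 4 libraries. HAMS stands for high-amylose maize starch, which reaches the colon undigested, and HAMSA and HAMSB are its acetylated and butyrylated forms. The labels number the libraries within a diet and do not say which animals they came from, so p-values measure the spread between these libraries.

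The mammalian mitochondrial genome is a small circle that is transcribed along nearly its whole length from both strands. The long transcripts are cut at the tRNAs that lie between the other genes, which frees the rRNAs and the mRNAs, and most of the mRNAs then receive a poly(A) tail. The protein-coding genes give core subunits of respiratory complexes I, III and IV and of ATP synthase, and the nucleus encodes the other subunits and all factors that copy, transcribe and translate this genome. Mature mitochondrial tRNAs end in CCA instead of a poly(A) tail. Copies of mitochondrial DNA also sit in the nuclear chromosomes, and a read from a stretch that is identical in both cannot be assigned to either.

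Several of the genes below have such copies, and stretches of some of them are shown first. They were read from the transcripts of GENCODE M21 (GRCm38), 5′ to 3′, as the first 120 bases of the mitochondrial gene and the bases aligned to it in the nuclear copy. Capitals mark the bases that differ between the members of a pair. The mt-Nd3 stretch (chrM:9459-9578, plus strand) and its copy Gm28438 (chr1:24613000-24613119, minus strand) differ at 1 base, and the mt-Co1 stretch (chrM:5328-5447, plus strand) and its copy Gm13340 (chr2:22589528-22589647, minus strand) at 3. The mt-Nd4l stretch (chrM:9877-9996, plus strand) is identical to its copy Gm10222 (chr1:24612581-24612700, minus strand) and is given once.
mt-Nd3: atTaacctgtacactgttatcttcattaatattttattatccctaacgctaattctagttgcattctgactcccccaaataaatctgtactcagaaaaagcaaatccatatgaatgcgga
Gm28438: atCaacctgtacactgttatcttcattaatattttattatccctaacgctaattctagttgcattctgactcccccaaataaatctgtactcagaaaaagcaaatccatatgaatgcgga
mt-Nd4l and Gm10222: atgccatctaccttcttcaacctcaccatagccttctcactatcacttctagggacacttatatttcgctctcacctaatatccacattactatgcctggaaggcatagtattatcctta
mt-Co1: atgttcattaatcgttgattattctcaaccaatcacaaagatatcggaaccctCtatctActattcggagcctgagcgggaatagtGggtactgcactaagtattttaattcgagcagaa
Gm13340: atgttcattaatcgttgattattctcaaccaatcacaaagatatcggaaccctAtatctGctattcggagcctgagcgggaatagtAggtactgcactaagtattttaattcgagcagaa

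The whole sequences of the mt-Tt and mt-Ti genes, for the threonine and isoleucine tRNAs, are given with the anticodon in capitals. Both genes are described below. They lie at chrM:15289-15355 and chrM:3706-3774, both on the plus strand.
mt-Tt: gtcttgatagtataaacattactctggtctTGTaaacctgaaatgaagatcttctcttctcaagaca
mt-Ti: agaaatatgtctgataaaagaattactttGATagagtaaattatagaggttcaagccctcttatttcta

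Library totals ran from 15053965 to 46206200 counts. All 12 libraries of the other diets had at least 31707731, and the deepest HAMSA library had 30723337. B cell markers were abundant in every library: Ms4a1, a surface protein of B cells, ran from 698 to 1688 CPM (counts of a gene per 1000000 counts of its library), and Cd79a, a signalling chain of the B cell receptor, from 1839.7 to 3067 CPM. Pax5, the transcription factor that maintains B cell identity, ran from 267 to 483 CPM. Markers of red cells differed far more. The summed level of 9 such genes was 459.7 to 6201 CPM in HAMSA, 69.8 to 1468 CPM in NP, 20.5 to 97.3 CPM in HAMS and 17.6 to 1432 CPM in HAMSB, with Hba-a2 at 0 in some libraries. In bulk samples, fewer cells of a type and less RNA per cell cannot be told apart.

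Mitochondrially encoded RNA made up 1.52% of all counts, and libraries of the same diet lay farther apart than the means of the diets. NP libraries 1, 3, 4 and 5 had shares of 2.04%, 1.13%, 1.09% and 1.69%. HAMS libraries 1, 4, 5 and 6 had 1.53%, 1.32%, 2.23% and 1.70%. HAMSA libraries 1, 2, 3 and 6 had 1.58%, 1.11%, 0.919% and 1.70%, and HAMSB libraries 1, 2, 5 and 6 had 1.59%, 1.83%, 0.851% and 1.55%. HAMS 5 was the highest and HAMSB 5 the lowest, 2.62-fold apart, and the ranges of all 4 diets overlapped.

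The mean share was 1.49% ± 0.457 in NP, 1.70% ± 0.392 in HAMS, 1.33% ± 0.373 in HAMSA and 1.46% ± 0.421 in HAMSB (SD, n = 4). In 6 pairs of diets the two-sided exact permutation test gave p from 0.257 (HAMSA against HAMS) to 0.943 (HAMSB against NP), adjusted p 0.856 to 0.943, where 0.0286 is the smallest p that 4 against 4 libraries allow. Single libraries set the sign of the small differences. HAMSA minus NP was -0.158 percentage points with all libraries and 0.0253 without NP 1. HAMSB minus NP was -0.0306 percentage points, and 0.152, 0.0371 and 0.171 without NP 1, NP 5 or HAMSB 5. HAMSA minus HAMSB was -0.127 percentage points, and 0.00926 without HAMSA 3. HAMS stood above NP by 0.210 percentage points, and by 0.0301 to 0.393 with 1 library left out.

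**Figure D1:**
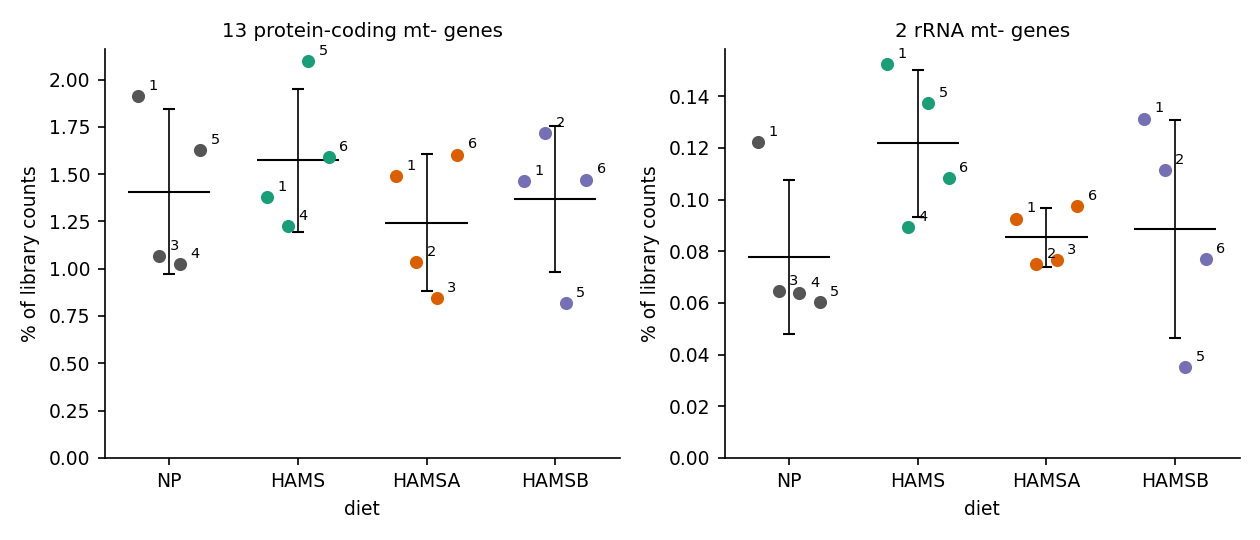
Share of library counts (percent) in the 13 protein-coding genes (left) and the 2 rRNA genes (right) of the mitochondrial genome, by diet. Each point is 1 library with its number, the bar is the mean and the whiskers are the SD of 4 libraries; the protein-coding shares overlap in all diets, and the rRNA share of NP 1 (0.122%) stands apart from those of the other NP libraries (0.0602% to 0.0646%).

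Most of this RNA came from few genes. The 8 members above 100 CPM on average, mt-Nd1, mt-Nd2, mt-Nd4, mt-Nd5, mt-Cytb, mt-Co1 and the rRNA genes mt-Rnr1 and mt-Rnr2, held 99.8% of the 8047795 counts in mitochondrially encoded genes. Levels of different genes are compared here per kb of gene, as the mean of 16 libraries. On that scale mt-Co1 (ENSMUSG00000064351, chrM:5328-6872), the catalytic core subunit of complex IV, was highest at 4099 CPM per kb, with libraries from 2288 to 5867. mt-Cytb (ENSMUSG00000064370, chrM:14145-15288), the only subunit of complex III that this genome encodes, followed with 2305 CPM per kb and libraries from 1215 to 3253. The complex I subunit genes were next, with 1616 CPM per kb for mt-Nd1, 1030.1 for mt-Nd2, 771 for mt-Nd5 and 696 for mt-Nd4. The ranges over libraries of neighbours in this order overlapped.

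The rRNA genes stood below the abundant mRNAs in these poly(A) libraries. mt-Rnr1, the RNA of the small mitochondrial ribosomal subunit (chrM:70-1024), had 414 CPM per kb. mt-Rnr2, that of the large subunit (chrM:1094-2675), had 340.0 CPM per kb. In every library mt-Rnr2 had more counts than mt-Rnr1, 115 to 158 counts for each 100.

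mt-Nd6 (chrM:13552-14070) encodes a complex I subunit and is the single protein-coding gene on the light strand. It averaged 8.65 CPM, or 16.7 CPM per kb, with libraries from 3.62 to 14.3 CPM. The 9 light-strand members together held 0.0605% of mitochondrially encoded counts, and mt-Nd6 made up 95.3% of those. Per kb it was below its neighbours mt-Nd5 and mt-Cytb in all 16 libraries.

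The 6 remaining protein-coding genes were close to absent. mt-Co2 and mt-Co3, the other complex IV subunit genes, averaged 5.30 and 5.90 CPM (7.75 and 7.53 CPM per kb). mt-Atp6 and mt-Atp8, subunits of ATP synthase, averaged 3.799 and 0.214 CPM (5.58 and 1.05 CPM per kb). The complex I subunit genes mt-Nd3 and mt-Nd4l averaged 0.216 and 0.445 CPM (0.620 and 1.497 CPM per kb). Together these 6 genes had 8674 counts in 16 libraries, 0.108% of mitochondrially encoded counts, although they are cut from the same long transcript as mt-Co1 and mt-Cytb.

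The 6 genes are neighbours. They all lie in a stretch of 4653 bases (chrM:6390-11042) that is matched by 7 unprocessed pseudogenes in a row on chromosome 1 (chr1:24611535-24616197, minus strand). In the GENCODE M21 transcripts mt-Co2, mt-Atp6, mt-Co3 and mt-Nd4l were 100% identical to Gm28661, Gm10925, Gm28437 and Gm10222 over 681, 678, 783 and 294 bases. mt-Nd3 was 99.7% identical to Gm28438, with 1 mismatch in 345 bases, the capital in the pair printed above. mt-Atp8 has no annotated copy. It sits between mt-Co2 and mt-Atp6, and the gap between the matched parts of these genes is 233 bases in the mitochondrial genome and 233 bases on chromosome 1.

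The same stretch covers parts of both neighbours. The last 483 bases of mt-Co1 matched Gm29216 at 99.8% and the first 876 bases of mt-Nd4 matched Gm28439 at 100%, so 31.3% of mt-Co1 and 63.6% of mt-Nd4 have a near-identical copy. Taking only the bases outside that copy as the length, the mean level of mt-Co1 would be 5963 CPM per kb and that of mt-Nd4 1912 CPM per kb, above mt-Nd1, mt-Nd2 and mt-Nd5. The counting left out reads that mapped to several places, 11.4% to 21.2% of the reads of a library. How many of those came from the stretch cannot be read from a count table, so the part of the copies in the low counts was not tested. The fall from mt-Co1 to mt-Co2 and the return at mt-Nd4 stand out in the plot of levels along the genome.

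**Figure D2:**
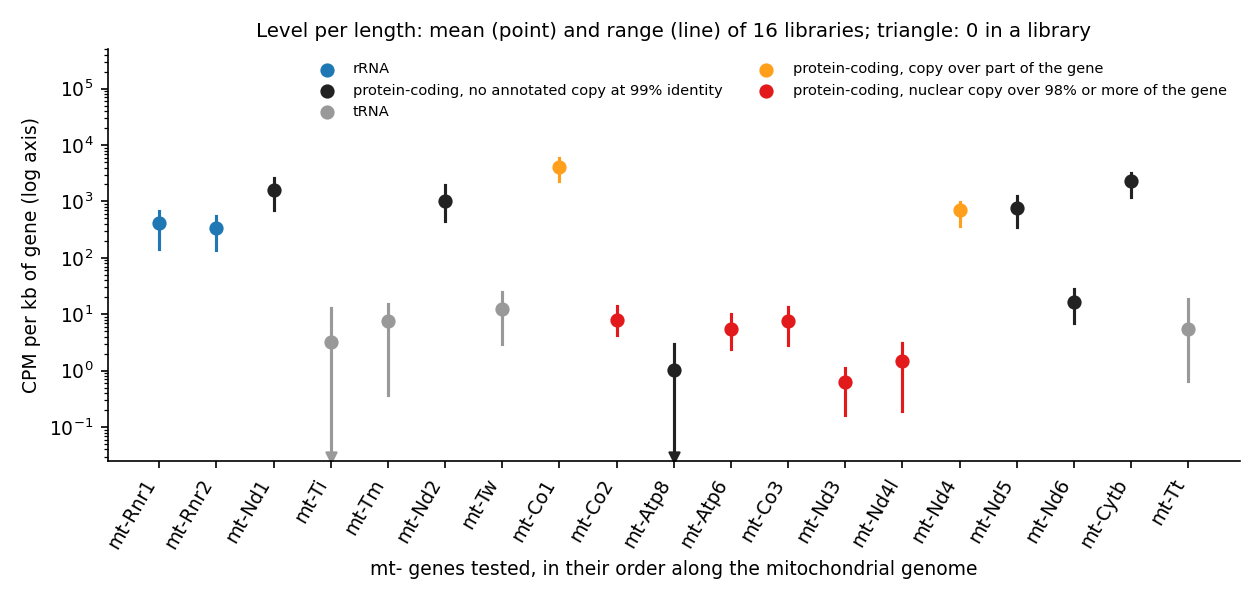
Level per kb of gene (CPM per kb, log axis) of the 19 members tested, in their order along the mitochondrial genome. Points are means and lines ranges of 16 libraries, a triangle marks a 0 in at least 1 library, red points are genes copied on chromosome 1 at 99% identity or more over all but 1 to 3 of their bases, and orange points are mt-Co1 and mt-Nd4, copied there in part. The red points lie between 0.620 and 7.75 CPM per kb, and the abundant protein-coding genes, the orange points among them, between 696 and 4099.

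Of the 7 chromosome 1 copies, Gm10222 was the only one with a row in the count table. It had 7 to 83 counts in a library, more than mt-Nd4l in 16 of 16 libraries (1 to 33 counts), although the transcripts share 294 identical bases. Reads from either gene inside those bases cannot be told apart, and both values are therefore uncertain.

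Copies that are less alike took few counts. Gm13340 on chromosome 2 copies the whole of mt-Co1 with 37 mismatches in 1545 bases (97.6% identity). Its counts were 0.0820% to 0.165% of those of mt-Co1 in 15 libraries and 0.258% in HAMSB 5, the library with the lowest mitochondrial share. Gm13341, a copy of mt-Co2 at 95.9%, had 11 to 69 counts. Gm13339, a copy of part of mt-Nd2, and Gm4076, a copy of part of mt-Nd5 on chromosome 13, had at most 14 counts in any library.

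The tRNA genes gave 1327 counts in all libraries together and at most 52 in 1 library and gene, and none averaged 1 CPM. 14 of the 22 had at least 1 count. The 8 with none, mt-Tf, mt-Td, mt-Tk, mt-Tg, mt-Tr, mt-Th, mt-Ts2 and mt-Tl2, allow at most 0.00567 CPM each, the level of 3 counts in the sum of all libraries (counting error only). 5 tRNA genes lie in the stretch copied on chromosome 1, and together they had 1 count. Of the 8 genes with none, 4 lie in that stretch and 4 elsewhere. 4 tRNA genes passed the filter on low counts: mt-Tw (tryptophan), mt-Tm (methionine), mt-Tt and mt-Ti, with means of 0.814, 0.534, 0.360 and 0.223 CPM. They are described here because they passed that filter, after their values were seen.

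Tests between diets covered 19 members, the 13 protein-coding genes, 2 rRNA genes and these 4 tRNA genes, in an edgeR quasi-likelihood fit of 15021 genes. The other 18 members, all tRNA genes, were too low. No member passed an adjusted p of 0.05 in any pair of diets or in the test for any difference among diets. In that last test 3.78% of all genes tested were called. At an unadjusted p below 0.05 there were 3 members in HAMS against NP, 1 in HAMSA against NP, 0 in HAMSB against NP, 2 in HAMSA against HAMS, 0 in HAMSB against HAMS and 1 in HAMSA against HAMSB. 1 of those in HAMS against NP and in HAMSA against HAMS is mt-Ti, which passed the filter only with its HAMS libraries. The shares of all genes below that value were 19.3%, 25.1%, 6.89%, 11.7%, 14.1% and 19.4%. limma voom called no member either, and DESeq2 called mt-Tt in HAMSA against NP (8.62% of all genes) and in the test over all diets (adjusted p = 0.0151, 12.6% of all genes).

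The rRNA genes had their largest fold changes in HAMS against NP, where HAMS was higher and no member passed the test. Of all genes tested 4.33% were called in it, and 0 of 19 members. mt-Rnr1 had 539, 253, 270.1 and 249 CPM in NP 1, 3, 4 and 5, and 635, 375, 608 and 478 CPM in HAMS 1, 4, 5 and 6. Of the NP libraries only NP 1 lies in the range of the HAMS libraries. The log2 fold change was 0.76 ± 0.33 (SE; 95% interval 0.05 to 1.47), with unadjusted p = 0.0374 and adjusted p = 0.226. mt-Rnr2 had 683, 393, 369 and 353 CPM in the same NP libraries and 888, 516, 765 and 604 CPM in the HAMS libraries. NP 1 again was the one that overlapped them. Its log2 fold change was 0.71 ± 0.31, adjusted p = 0.227. Neither gene passed under any setting tried, and without 1 library at a time the adjusted p of mt-Rnr1 lay between 0.0749 and 0.457 and that of mt-Rnr2 between 0.0968 and 0.46.

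The summed level of 9 macrophage markers was 133 to 286 CPM in NP and 38.3 to 79.4 CPM in HAMS, without overlap. In HAMSA it was 80.4 to 127 CPM and in HAMSB 42.8 to 109 CPM, also below NP without overlap. The part of these markers in HAMS against NP was not tested. The protein-coding genes had smaller fold changes there. mt-Co1 had 8635, 4822, 4647 and 7613 CPM in NP and 5946, 5499, 9064 and 7086 CPM in HAMS, with 2 NP libraries below the lowest HAMS library and 1 HAMS library above the highest NP library. Its log2 fold change was 0.18 ± 0.28, and 0.35, 0.06, 0.05, 0.27 and 0.02 without NP 1, NP 3, NP 4, NP 5 or HAMS 5. With library totals alone as the scaling it was 0.10. mt-Cytb had 3465, 1946, 1907 and 3047 CPM in NP and 2903, 2707, 3722 and 2853 CPM in HAMS, a log2 fold change of 0.31 ± 0.25, and of 0.48, 0.19, 0.19 and 0.21 without NP 1, NP 3, NP 4 or HAMS 5. All 19 members, mt-Ti included, had values above 0 (median 0.31 on the log2 scale), against 7764 of 15021 genes and a median of 0.01 for all genes tested. The members share the libraries and their mitochondrial share, so the count of signs is a description of these libraries.

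HAMSA and HAMSB stood below HAMS for the abundant members, and no difference passed. In HAMSA against HAMS 0% of all genes tested were called. The 8 abundant members had log2 fold changes of -0.66 (mt-Nd2) to -0.28 (mt-Nd4), with adjusted p of at least 0.456. mt-Nd2 had 1132, 690.3, 461 and 1164 CPM in HAMSA and 1007, 863, 2018 and 1410.4 CPM in HAMS, so HAMSA 1 and 6 lie inside the range of HAMS. Without HAMS 5 its value was -0.38. In HAMSB against HAMS 1.68% of all genes were called and 0 members. The abundant members lay between -0.57 (mt-Rnr1) and -0.19 (mt-Co1). mt-Rnr1 had 526, 461, 136 and 358 CPM in HAMSB, where HAMSB 5 was the lowest of all 16 libraries. Without HAMSB 5 the value of mt-Rnr1 was -0.30, that of mt-Rnr2 went from -0.50 to -0.24, and that of mt-Nd4 from -0.39 to -0.20. Without HAMSB 1 that of mt-Rnr2 was -0.77. Both comparisons share the HAMS libraries. In HAMSA against NP (1.41% of all genes called), HAMSB against NP (0.0732%) and HAMSA against HAMSB (0.779%) the medians of the abundant members were -0.03, -0.00433 and -0.04, and again 0 were called.

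The size of change that could have been seen is limited by the spread between libraries. The biological coefficient of variation of the abundant members was 21.9% (mt-Nd4) to 34.5% (mt-Nd2), with a median of 29.2%, against a median of 18.2% for all genes tested. In HAMS against NP the SE of the log2 value had a median of 0.30 over these 8 genes and of 0.18 over all genes. Their counts were high in every library, with at least 4705 for mt-Rnr1 and 53205 for mt-Co1, so that counting error is a small part of this spread.

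mt-Tt came nearest to the threshold. It had 24, 22, 6 and 8 counts in HAMSA 1, 2, 3 and 6, which are 0.781, 1.26, 0.399 and 0.494 CPM. The 4 NP libraries had 0.252, 0.204, 0.307 and 0.234 CPM, the HAMS libraries 0.316, 0.120, 0.312 and 0.314 CPM, and the HAMSB libraries 0.207, 0.378, 0.144 and 0.0433 CPM. Each HAMSA library was above every library of the other diets. The log2 fold change of HAMSA was 1.60 ± 0.50 against NP (adjusted p = 0.0856), 1.43 ± 0.50 against HAMS (0.333) and 1.96 ± 0.51 against HAMSB (0.0853). In the test for any difference among diets the adjusted p was 0.0803.

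DESeq2 placed mt-Tt past the threshold in HAMSA against NP, with a log2 fold change of 1.61 and adjusted p = 0.0446, and gave it no adjusted p in HAMSA against HAMSB. edgeR did so in HAMSA against HAMSB without HAMSB 2, at 2.52 and adjusted p = 0.0469. CPM without overlap were found for 1 of the 19 members in HAMSA against NP (16.5% of all genes), 2 in HAMSA against HAMS (4.12%) and 1 in HAMSA against HAMSB (8.83%). They were found for 0 members in HAMS against NP (14.1% of all genes), HAMSB against NP (5.22%) and HAMSB against HAMS (8.37%). The HAMSA libraries are also the shallowest and hold the most red cell marker RNA on average, with the values given above. Their summed levels of 8 neutrophil markers (71.8 to 306 CPM), 7 T cell markers (113 to 208 CPM) and 6 plasma cell markers (1530.3 to 2032 CPM) lay above those of NP (8.56 to 61.2, 75.8 to 104 and 1209 to 1517 CPM) without overlap. In HAMS these levels were 4.73 to 104, 66.3 to 134 and 1127 to 1767 CPM, and in HAMSB 39.99 to 245, 94.1 to 256 and 887 to 1524 CPM. Of these markers Elane was at 0 in some libraries and the others at 0 in none. The summed level of the macrophage markers went the other way, lower in HAMSA than in NP without overlap, with the values given above. The part of any of these in the mt-Tt level was not tested. mt-Cytb, whose end is next to the start of mt-Tt on the same strand, had 2567, 2129.6, 1934 and 2935 CPM in HAMSA, inside the range of NP. The summed share of all tRNA genes, mt-Tt included, was also highest on average in HAMSA. It was 0.000371% of counts there, 0.000189% in NP, 0.000296% in HAMS and 0.000192% in HAMSB. Two-sided exact permutation tests of HAMSA gave adjusted p = 0.309 against NP and HAMSB and 0.686 against HAMS. mt-Tp, next to mt-Tt on the other strand, mt-Tw, mt-Tl1 and mt-Tq also had their highest means in HAMSA, mt-Tm and mt-Ti theirs in HAMS. mt-Tl1, too low to be tested, averaged 0.439 CPM in HAMSA and 0.160, 0.110 and 0.156 CPM in NP, HAMS and HAMSB. HAMSA 3, at 0.0664 CPM, lay inside the range of the other diets. The remaining tRNA genes had at most 24 counts each in all libraries together.

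mt-Ti rested on fewer counts. It had 9, 3, 0 and 4 counts in NP and 14, 3, 32 and 18 in HAMS, and HAMS 4, with 3 counts, lay inside the range of NP. HAMSA libraries had 5, 1, 0 and 1 counts and HAMSB libraries 1, 15, 3 and 20. The filter asks for 0.286 CPM in 4 libraries, which 3 HAMS, 2 HAMSB and 0 other libraries reached. The gene was thus kept through the diet in which it was highest, and its fold changes against HAMS and their p-values are not read as results. The gene begins inside the last bases of mt-Nd1, and they share 2 bases. mt-Tm was the second member without overlap between HAMSA and HAMS: HAMSA had 0.229 to 0.598 CPM and HAMS 0.633 to 1.04 CPM.

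Ratios between mitochondrial genes need no scaling between libraries, and they separated diets in few cases. In 42 tests of 7 ratios, 3 (7.14%) had values that did not overlap, each with the smallest exact permutation p of 0.0286, and each had an adjusted p of 0.4. The rRNA counts per 100 protein-coding counts were 6.39, 6.05, 6.24 and 3.70 in NP and 11.04, 7.27, 6.55 and 6.80 in HAMS. Every HAMS library was above every NP library, and the gap between NP 1 and HAMS 5 was small. The means of the log2 ratios of these diets differed by 0.50. HAMSA had 6.22, 7.23, 9.08 and 6.07 and HAMSB 8.99, 6.48, 4.29 and 5.24, which overlap both.

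The complex IV genes, nearly all of it mt-Co1, made up 45.3%, 45.2%, 45.5% and 46.8% of protein-coding counts in NP and 43.2%, 44.9%, 43.3% and 44.6% in HAMS. The HAMSB libraries had 47.1%, 46.5%, 47.7% and 45.3%. HAMS lay below both diets without overlap, and its mean log2 share was lower by 0.05 (NP) and 0.08 (HAMSB). HAMSA libraries ran from 42.1% to 47.2%, across both. No ratio of mt-Rnr2 to mt-Rnr1, of mt-Nd6 to the other 12 protein-coding genes, or share of complex I, III or V differed without overlap.

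**Figure D3:**
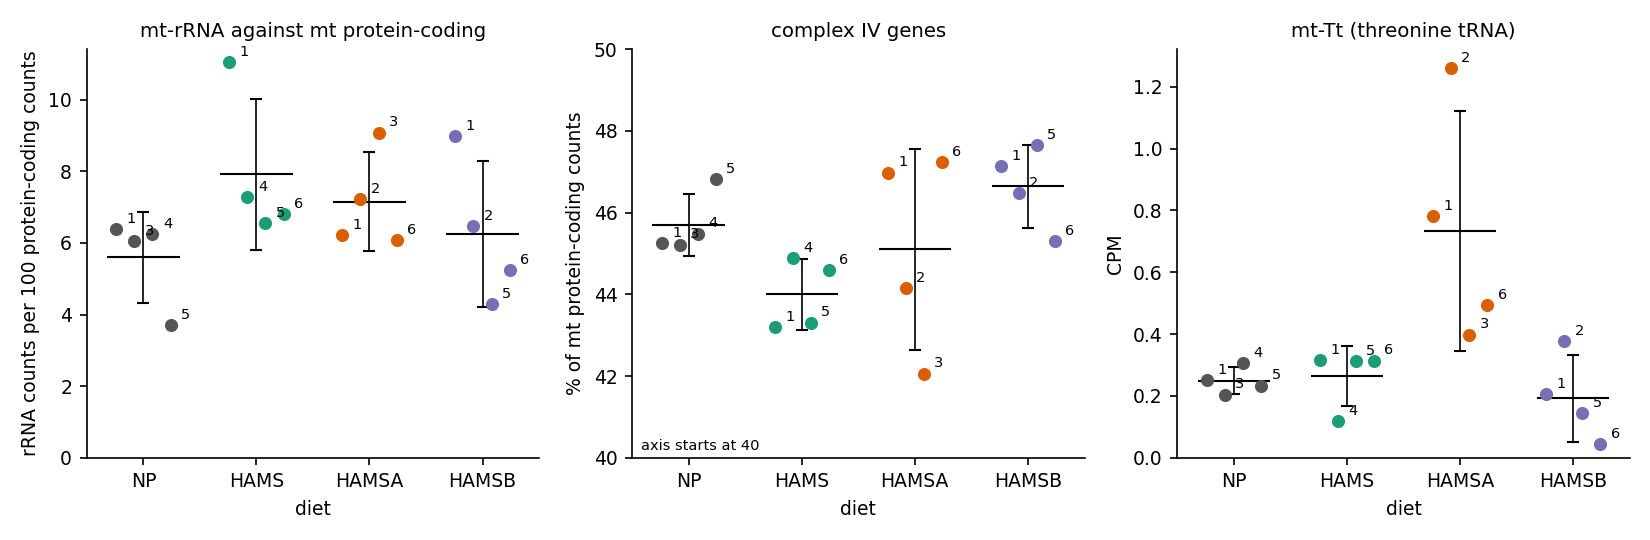
rRNA counts per 100 protein-coding counts (left), complex IV genes as a percent of mitochondrial protein-coding counts (middle, axis from 40) and mt-Tt in CPM (right), by diet. Points are libraries with their numbers, bars means and whiskers the SD of 4 libraries; the HAMS libraries lie above all NP libraries on the left and below all NP and HAMSB libraries in the middle, and the HAMSA libraries lie above all others on the right, with no adjusted p under 0.05.

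The abundant mRNAs varied less between libraries as shares of protein-coding counts than in CPM. Correlations between them were not tested. mt-Co1 made up 42.0% (HAMSA 3) to 47.6% (HAMSB 5) of protein-coding counts, with a coefficient of variation of 3.62% over 16 libraries, against 26.7% for its CPM. It is itself a large part of that total, which steadies its share. For mt-Nd4 these values were 13.3% and 21.1%. mt-Cytb made up 17.03% to 22.95% and mt-Nd1 8.18% to 12.6%. mt-Nd5 varied most of the abundant genes as a share, from 7.77% in HAMSA 3 to 13.3% in HAMSB 5. Its coefficient of variation was 15.4%, against 29.9% for its CPM. HAMSA 3 and HAMSB 5, the lowest libraries by mitochondrial share, thus sit at opposite ends for mt-Co1 and mt-Nd5. In HAMSA 3 mt-Nd4 and mt-Cytb had their highest shares, 9.92% and 22.95%.

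The mitochondrial share was set against 6 measures of the libraries over 16 libraries. Pearson's r was 0.276 with the total count, 0.154 with reads outside exons, 0.122 with reads mapped to several places, -0.148 with the red cell marker level, -0.236 with the share of nuclear oxidative phosphorylation genes and -0.168 with that of cytosolic ribosomal protein genes. Spearman's rho was 0.123, 0.0706, 0.0853, -0.0147, -0.221 and -0.182 in the same order. Permutation p-values adjusted over the 6 were 0.655 for every r and 0.955 to 0.961 for rho. Without the pair of libraries farthest from the median of each measure r became 0.219, 0.301, -0.0712, -0.103, 0.154 and -0.478. Within diets, after subtracting each diet's mean, it was 0.257, 0.0437, 0.183, 0.141, -0.216 and -0.143. The percent of reads unmapped was not among the 6 measures, and its relation to the share was not tested. It was highest in HAMSB 5 (10.2%) and HAMSA 3 (8.52%), the libraries with the lowest mitochondrial shares. HAMSA 2, with a share of 1.11%, had 7.78% unmapped. NP 3 and NP 4, with shares of 1.13% and 1.09%, had 3.66% and 3.92%.

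The genes in the nucleus that serve this genome were counted in lists. Of the subunit genes of oxidative phosphorylation that the nucleus encodes, 77 were tested and 0 were called in any pair by edgeR. At unadjusted p below 0.05 there were 3, 26, 0, 0, 8 and 33 in HAMS, HAMSA and HAMSB against NP, HAMSA and HAMSB against HAMS, and HAMSA against HAMSB, against 19.3%, 25.1%, 6.89%, 11.7%, 14.1% and 19.4% of all genes. As shares of the list these are 3.90%, 33.8%, 0%, 0%, 10.4% and 42.9%. DESeq2 called 1, 3, 0, 0, 0 and 6, where it called 8.41%, 8.62%, 0.826%, 0.686%, 4.01% and 3.99% of all genes. Uqcrfs1, the Rieske iron-sulfur subunit of complex III, and Cox5b, a complex IV subunit, had the smallest p. In HAMSA against HAMSB Cox5b was 70.4 ± 17.3 against 43.8 ± 9.90 CPM (SD, n = 4), 0.71 ± 0.18 on the log2 scale (SE), with edgeR's adjusted p = 0.0837. Uqcrfs1 was 77.99 ± 12.96 against 54.0 ± 10.9 CPM, 0.56 ± 0.14, with edgeR's adjusted p = 0.0843. In the same pair the complex IV and III members of the mitochondrial genome, mt-Co1 and mt-Cytb, had -0.13 ± 0.28 and -0.04 ± 0.25.

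The medians of both sets of respiratory genes went the same way in HAMS against NP and HAMSB against HAMS. Both lay near 0 in HAMSB against NP, and their signs differed in the pairs with HAMSA. In HAMSA against HAMS 65 of 77 nuclear genes had values above 0 (median 0.13) and 13 of 13 mitochondrial ones values below 0 (median -0.32). In HAMSA against HAMSB the medians were 0.40 and -0.24, in HAMSB against HAMS -0.30 and -0.23, in HAMS against NP 0.23 and 0.28, in HAMSA against NP 0.36 and -0.07, and in HAMSB against NP -0.02 and 0.00294. The medians over all genes tested lay between -0.00395 and 0.01. These pairs share libraries, and the difference between the sets was not tested.

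**Figure D4:**
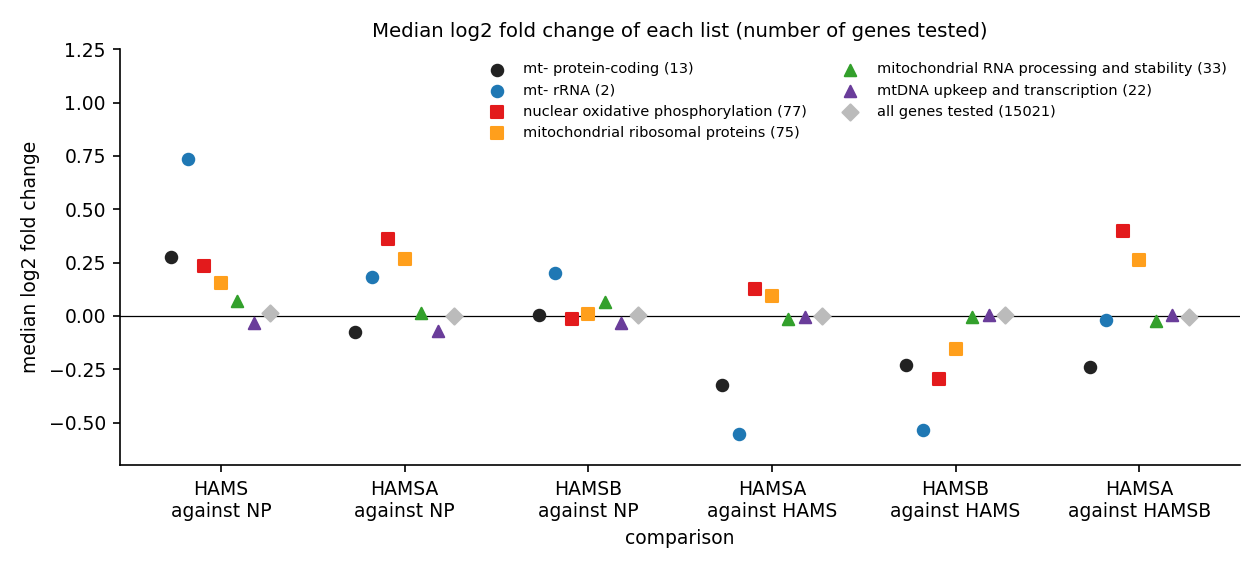
Median log2 fold change of mitochondrially encoded protein-coding and rRNA genes, of 4 lists of nuclear genes and of all genes tested, in each pair of diets; the legend gives the number of genes tested. The medians of all genes lie at 0.01 or nearer to 0, and in HAMSA against HAMS and HAMSA against HAMSB those of the nuclear oxidative phosphorylation genes lie above 0 and those of the mitochondrially encoded protein-coding genes below.

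Nuclear genes that act on mitochondrial DNA, RNA and ribosomes gave few calls by edgeR, 6 in HAMS against NP and 2 in HAMSB against HAMS. Of all genes tested edgeR called 4.33% and 1.68% in these pairs. The calls of 1 of 22 and 1 of 33 genes that follow are near the share in HAMS against NP. 1 of 22 genes of DNA upkeep and transcription was called. Tfam, which packs mitochondrial DNA and starts its transcription, was 100.8 ± 6.34 CPM in HAMS and 83.9 ± 4.29 in NP, 0.35 ± 0.09 on the log2 scale, with edgeR's adjusted p = 0.0436. 1 of 33 genes of RNA processing and stability was called, Fastkd5, a protein of mitochondrial RNA granules, at 9.36 ± 1.18 against 6.999 ± 0.429 CPM with edgeR's adjusted p = 0.0446. Of 14 regulators of biogenesis and proteases 0 were called by edgeR. In HAMS against NP 3 of them had an unadjusted p below 0.05 in edgeR, against 19.3% of all genes. DESeq2 called 2 of them there, and 3 in each of the lists of DNA upkeep and RNA processing, where it called 8.41% of all genes. Nrf1, a transcription factor for nuclear genes of the respiratory chain, had 0.25 ± 0.08 (adjusted p = 0.0925), and Sirt3, a mitochondrial deacetylase, -0.41 ± 0.14 (adjusted p = 0.116).

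Of 75 mitochondrial ribosomal protein genes tested 4 were called by edgeR, all higher in HAMS than in NP. The list's log2 median was 0.16 in that pair, 0.27 in HAMSA against NP and 0.26 in HAMSA against HAMSB. Genes above 0 numbered 61, 65 and 69 in these pairs. At unadjusted p below 0.05 edgeR had 10, 26 and 27, against 19.3%, 25.1% and 19.4% of all genes. DESeq2 called 5, 8 and 7, where it called 8.41%, 8.62% and 3.99% of all genes. Mrps6, a protein of the small subunit, was 10.4 ± 2.97 CPM in HAMS and 5.48 ± 0.474 in NP, 1.01 ± 0.20 on the log2 scale, with edgeR's adjusted p = 0.00978. Mrpl50, of the large subunit, was 28.03 ± 0.858 against 22.4 ± 1.21 CPM with edgeR's adjusted p = 0.00943. Mrps7 and Mrpl38 had 0.53 ± 0.14 (adjusted p = 0.041) and 0.45 ± 0.11 (0.0268). In HAMSB against HAMS Mrps6 was lower, at 5.77 ± 1.18 CPM and -0.92 ± 0.20 (0.0232), and so was Mrps7, at 43.2 ± 6.89 against 62.9 ± 12.7 CPM and -0.62 ± 0.14 (0.0298). The edgeR calls, 4 and 2 of 75, are near the share of all genes called, 4.33% in HAMS against NP and 1.68% in HAMSB against HAMS. Mrps6 and Mrpl50 stayed below 0.05 in HAMS against NP without any 1 library, with adjusted p up to 0.0425 and 0.0462. Tfam, Fastkd5, Mrps7 and Mrpl38 lost the call in 10, 13, 11 and 7 of 16 such omissions, and also with library totals alone as the scaling (adjusted p 0.0982, 0.0783, 0.0606 and 0.0527). Tfam, Fastkd5 and Mrps7 lost it too without the filter on low counts (0.0794, 0.098 and 0.0525) and in a fit of only these 2 diets (0.057, 0.0835 and 0.0654). All 4 lost it without NP 1, NP 3, NP 4, NP 5 or HAMS 4. Tfam also lost it without HAMS 5, HAMS 6, HAMSA 1, HAMSA 2 or HAMSB 6, and Mrpl38 without HAMS 1 or HAMS 6. Fastkd5 lost it without HAMS 1, HAMS 6, HAMSA 1, HAMSA 2, HAMSA 6 or any of HAMSB 1, 5 and 6, and Mrps7 without HAMS 6, HAMSA 1, HAMSA 2, HAMSA 3, HAMSB 1 or HAMSB 6. In HAMSB against HAMS Mrps6 and Mrps7 each lost it in 5, without HAMS 4, HAMS 6, HAMSB 1, HAMSB 5 or HAMSB 6, and in a fit of only these 2 diets (adjusted p 0.175 and 0.203).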

How the data were processed

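Per the labels' protocols, B cells were enriched from spleen by magnetic negative selection and stranded poly(A) libraries were made. Per the submitters' processing notes, STAR, featureCounts of Subread, edgeR and limma were used. Their versions, the genome build and the annotation are not given in the sources used here. Raw read counts per gene were deposited by the authors for 39179 genes and 16 libraries, and reads mapped to several places are left out of them. The series' design text gives 4 samples a diet and also triplicates.

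Members were the genes with symbols starting mt-. Coordinates, lengths and copies came from GENCODE M21 (GRCm38), with 37607 identifiers matched, and may differ from the authors' annotation. Copies were found with blastn 2.17.0 of each member's transcript against all others, at 95% identity or more over at least 50 bases.

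CPM are counts per 1000000 counts of a library, and ± is the SD of 4 libraries, or for log2 fold changes the SE. All genes were fitted with edgeR 4.0.16 in R 4.3.3 (minimum count 10, TMM, 1 mean per diet, quasi-likelihood F-test, 12 residual degrees of freedom), with Benjamini-Hochberg adjustment over 15021 genes and a threshold of 0.05. Shares and ratios were compared by two-sided exact permutation tests, and correlations by 100000 resamples (SciPy). Alternatives were DESeq2 1.42.0, limma voom 3.58.1, other scalings and filters, other denominators, the replicate number as a block and each library left out.

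The naming rule covered all protein-coding and rRNA members, tRNA genes above 1 CPM, and up to 4 called genes of each nuclear list or otherwise 2 with the smallest p. Members and lists were chosen with earlier results of these data known. Of the cell type markers, 1 is not reported here.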

Additional observations from a re-analysis of the deposited data

Results flagged for a closer look

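In each diet, the highest or lowest of the 4 libraries was checked for standing apart from the others (gap to the nearest library over the diet's range, against Dixon's 95% limit). Of 104 groups of 4 libraries 8 passed, and chance flags about 1 in 20. NP 1 stood high for the rRNA share of counts (0.122%, next 0.0646%), for mt-Rnr1 (539 CPM, next 270.1), for mt-Rnr2 (683 CPM, next 393) and for mt-Atp8 (0.599 CPM, next 0.153). HAMS 4 stood low for mt-Tt (0.120 CPM, next 0.312). NP 5 stood low for rRNA counts per 100 protein-coding counts (3.70, next 6.05) and high for the complex IV share of protein-coding counts (46.8%, next 45.5%). HAMS 1 stood high for rRNA counts per 100 protein-coding counts (11.04, next 7.27).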

How the results depend on the processing

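No mitochondrially encoded gene was called in HAMS against NP, HAMSB against NP, HAMSA against HAMS or HAMSB against HAMS under any alternative run. DESeq2 called 1, mt-Tt, in HAMSA against NP and 1 in the test over all diets, and leaving out 1 library at a time gave 0 to 1 calls in HAMSA against HAMSB and 0 to 1 over all diets, the 1 without HAMSB 2. The cause was not tested. The differences in mitochondrial share ran, with 1 library left out, from -0.291 to 0.0253 percentage points in HAMSA against NP, from -0.164 to 0.171 in HAMSB against NP (0.152 without NP 1, 0.0371 without NP 5) and from -0.328 to 0.00926 in HAMSA against HAMSB. All other scalings moved the log2 median of all genes by less than 0.1, with -0.0834 for library totals alone in HAMS against NP as the farthest.

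Genes of the nuclear lists called by DESeq2 numbered 14 in HAMS against NP (6 by edgeR), 14 in HAMSA against NP (0), 5 in HAMSB against HAMS (2), 14 in HAMSA against HAMSB (0) and 22 over all diets (4) of 221 genes tested. Of all genes DESeq2 called 8.41%, 8.62%, 4.01%, 3.99% and 12.6% in these tests, and edgeR 4.33%, 1.41%, 1.68%, 0.779% and 3.78%. Leaving out 1 library, an alternative added after the data were seen, gave 2 to 8 in HAMS against NP, 0 to 5 in HAMSA against NP, 0 to 3 in HAMSB against HAMS, 0 to 2 in HAMSA against HAMSB and 1 to 5 over all diets.

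Whether the replicate numbers shared between diets pair the libraries was not settled, as no chance level was computed for the following values. Of 15 pairs with the same number 8 had correlated deviations over 0.1, and the values ran from -0.25 to 0.491. Of 16 libraries 2 correlated best with their own number. With the number as a block 0 mitochondrially encoded genes were called, Tfam, Fastkd5 and Mrps7 lost the call in HAMS against NP (adjusted p 0.0866, 0.0883 and 0.0806) and Mrps7 that in HAMSB against HAMS (0.0793), and calls over all genes were 378, 0, 5, 0, 163 and 2 in the 6 pairs (650, 212, 11, 0, 252 and 117 without it). For the mitochondrial share the block was the mean difference within the 2 numbers that both diets share, with no p-value. It was -0.640 percentage points in HAMSB against NP and 0.0253 in HAMSA against HAMS. Without the block, over 4 libraries a diet, these differences were -0.0306 and -0.367. The block also took mt-Co1 in HAMS against NP from 0.18 to 0.02, and mt-Rnr1 and mt-Rnr2 in HAMSB against HAMS from -0.57 and -0.50 to -0.87 and -0.79, on the log2 scale.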
